A study of Mus musculus with 24 samples.

Results

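The genes that carry fatty acids into heart muscle, store them and burn them were followed by bulk RNA sequencing through ischemia and reperfusion of the mouse heart. The group holds 37 genes, named one by one as the genes of fatty acid uptake, storage, transport into mitochondria, beta-oxidation, electron transfer and fuel control, out of 46078 genes in the deposited tables. All 37 were found by Ensembl identifier and symbol, and all 37 passed the filter on low counts. Wild-type C57BL/6 mice had sham surgery or 45 min of cardiac ischemia. Hearts were taken with no reperfusion or at 0.5, 1, 1.5, 3, 6 or 12 h of reperfusion. Each of the 8 groups had 3 libraries from heart tissue, and no group carried a genetic change or a drug. The labels do not say which region of the heart was taken, when the sham hearts were collected, how the mice were fed or whether a group's 3 libraries stand for 3 mice. The p-values below therefore measure the spread between these libraries, which may be in part technical.

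The heart takes most of its energy from long-chain fatty acids. They are released from circulating triglyceride or from lipid droplets, bound and activated to acyl-CoA, passed through the inner mitochondrial membrane as carnitine esters and shortened stepwise by beta-oxidation, whose electrons enter the respiratory chain through the electron transfer flavoprotein. Malonyl-CoA blocks the entry step, pyruvate dehydrogenase kinase sets the choice between fatty acid and glucose, and the nuclear receptor PPARα with its coactivator PGC-1α drives many of the genes of the pathway.

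Library totals ran from 13407465 to 17181458 uniquely mapped reads, and the 37 genes took 2.08% to 2.84% of them. Cardiomyocyte genes were abundant in every library: the summed level of 14 ventricular markers ran from 62026 to 114612 CPM (reads scaled to a common library size). The first library of the 1 h group stood apart in one respect: relative to the sham mean, the median of the 3027 longest tested genes lay 0.81 on the log2 scale below that of the 3027 shortest. In the other ischemic and reperfused libraries this gap lay between -0.37 and -0.02. Calls and medians at 1 h are therefore given also for the fit without that library where it ended the call or moved the value, and with the trend over gene length removed where that ended a call. The ischemia group was uneven too. Its library 3 had 19.0% of its counts from the mitochondrial genome and 41.2% duplicate reads. Ischemia libraries 1 and 2 had 30.2% and 29.7% from the mitochondrial genome, and 52.7% and 54.5% duplicate reads.

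In sham hearts the deposited RPKM, which is scaled for gene length, spread these genes widely: Fabp3 was above 99.9% of all genes with a read, and Pnpla3 above 59.5%. Cpt1b, above 56.5%, is left out of this range because its count may be incomplete, as described below. The cytosolic fatty acid binding protein Fabp3 had 1231 ± 27.1 RPKM (SD, n = 3). Lpl, the lipase that frees fatty acids from circulating triglyceride, had 567 ± 50.6 RPKM. Cd36, the fatty acid translocase of the cell surface, had 386 ± 39.99 RPKM, and the pyruvate dehydrogenase kinase Pdk4 had 351 ± 49.5 RPKM. The 12 beta-oxidation enzymes lay between the enoyl-CoA isomerase Eci2, at 31.02 ± 0.913 RPKM, and the thiolase Acaa2, at 338 ± 20.6 RPKM. Regulators were far scarcer, with 15.2 ± 1.15 RPKM for Ppargc1a and 7.03 ± 0.869 RPKM for Ppara. The secreted lipase inhibitor Angptl4 began at 5.03 ± 1.85 RPKM, and the lipid droplet protein Pnpla3 at 0.810 ± 0.466 RPKM.

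**Figure D1:**
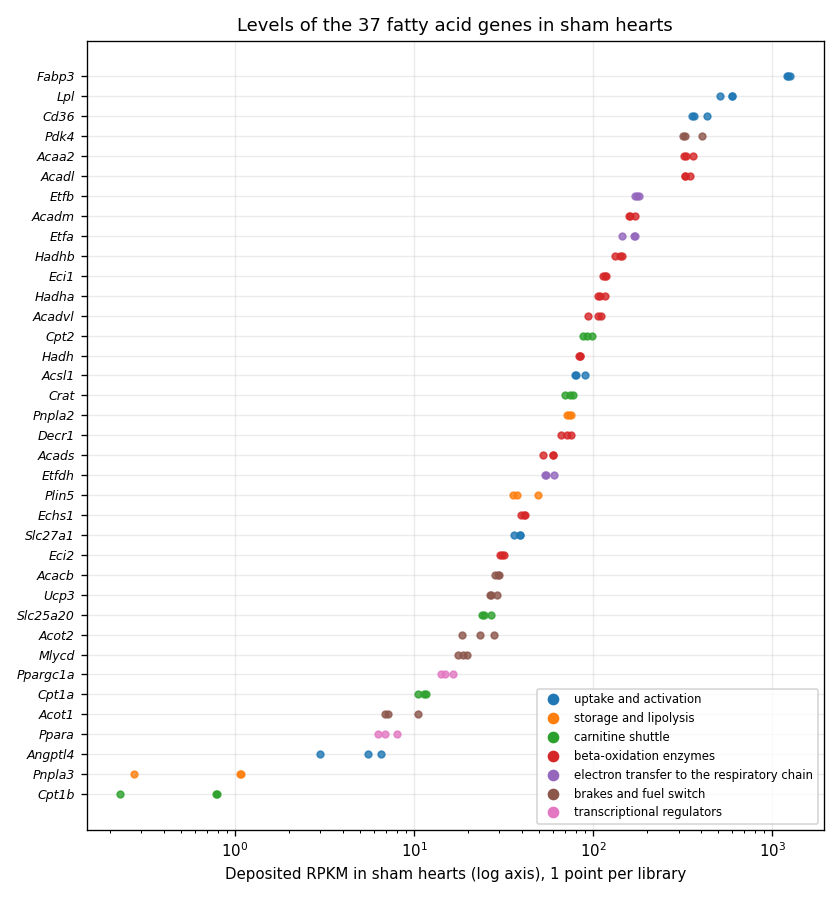
Deposited RPKM of the 37 genes in the 3 sham libraries (log axis, 1 point per library), coloured by role. Fabp3, Lpl, Cd36 and Pdk4 are at the top, and Angptl4, Pnpla3 and Cpt1b at the bottom, where the value of Cpt1b may not be a level of the whole transcript because part of its exons is shared with another gene.

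After reperfusion a part of the pathway differed from sham in both directions, while most of the beta-oxidation enzymes stayed within a narrow band. Since the collection time of the sham hearts and the feeding are not given, reperfusion cannot be told apart from time since surgery or feeding. Tests compared each group with sham over all 15128 genes that passed the filter, with edgeR's quasi-likelihood test, and a gene was called at a Benjamini-Hochberg adjusted p under 0.05. Ischemia alone gave no call among the 37 genes, against 0.0925% of all tested genes called higher and 0% lower. At an unadjusted p under 0.05 there were 3, and DESeq2 called 0. With ischemia library 3 left out there were also 0 calls, and the median of the 37 log2 fold changes was -0.09, against -0.10 with it. After 0.5 h, 5 of the 37 were higher and 0 lower, against 7.43% and 4.48% of all genes. Lower calls at 0.5 h appeared under other fits: Cd36 and Cpt2 in DESeq2, and Acsl1, Cd36, Cpt2 and Lpl with only the groups compared in the fit. With no filter on low counts Cd36 and Pnpla3 were called lower, and with the length trend removed Cpt2 was. Cd36 was also called lower without the mitochondrial genome and with multiply mapped reads included. After 1 h, 9 were higher and 1 lower, against 7.46% and 3.41% of all genes, and the median of the 37 log2 fold changes was 0.21, or 0.07 without 1 h library 1. After 1.5 h, 4 were higher and 1 lower, against 4.55% and 2.99%. These early counts fell with any 1 of the compared libraries left out, sham libraries included. The part of the smaller number of libraries in these losses was not tested. The 5 calls of 0.5 h became 2 without 0.5 h library 1 or sham library 3, and 3 without 0.5 h library 3, sham library 1 or sham library 2. The 10 calls of 1 h became 3 without 1 h library 1 or sham library 2, and 4 without sham library 1 or 3. The 5 calls of 1.5 h became 0 without 1.5 h library 1, 1 without 1.5 h library 3 or sham library 2, 2 without sham library 1 and 3 without sham library 3.

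The later times gave more calls, as they did over all genes. At 3 h 12 of the 37 were higher and 2 lower, which is 32.4% and 5.41% of the group, against 18.4% and 16.9% of all genes. The higher calls at 3 h were 8 without 3 h library 2, 9 without 3 h library 3 and 12 without 3 h library 1. At 6 h 8 were higher and 7 lower, or 21.6% and 18.9%, against 24.6% and 22.9% of all genes. At 12 h 8 were higher and 6 lower, or 21.6% and 16.2%, against 16.9% and 14.9% of all genes, and 9 calls were left without 12 h library 1. With library totals alone as the scaling, which moved the median of all genes at 12 h to 0.23, the 12 h split was 11 higher and 4 lower. Counts at 6 and 12 h were thus close to the background of the whole transcriptome. The median log2 fold change of the 37 genes went from -0.10 in ischemia through 0.15 at 3 h to -0.05 at 6 h and -0.10 at 12 h, while the median of all tested genes stayed between -0.01 and 0.01. The 3 h median of the 37 genes was 0.04 without 3 h library 2, 0.17 without 3 h library 3 and 0.24 without 3 h library 1. Over all comparisons with sham, 15 genes were called higher only, 8 lower only, 1 (Ppargc1a) higher at one time and lower at others, and 13 at no time. Of these 13, 8 were called against sham at some time under at least 1 alternative. A test of any change over the 8 groups called 26 of the 37, or 70.3%, against 64.3% of all genes.

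Between successive late times the calls were few. From 1.5 to 3 h 3 of the 37 genes were higher and 0 lower, against 5.36% and 3.17% of all genes, and 1 call was left without 1.5 h library 1, 1.5 h library 2 or 3 h library 3. From 3 to 6 h 0 were higher and 6 lower, against 14.7% and 13.2% of all genes. The 6 became 13 without 3 h library 1, 1 without 3 h library 2, and 2 without 6 h library 2 or 3. From 6 to 12 h 2 were higher and 0 lower, against 6.49% and 6.68%, and 1 was left without 6 h library 2 or 12 h library 2.

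**Figure D2:**
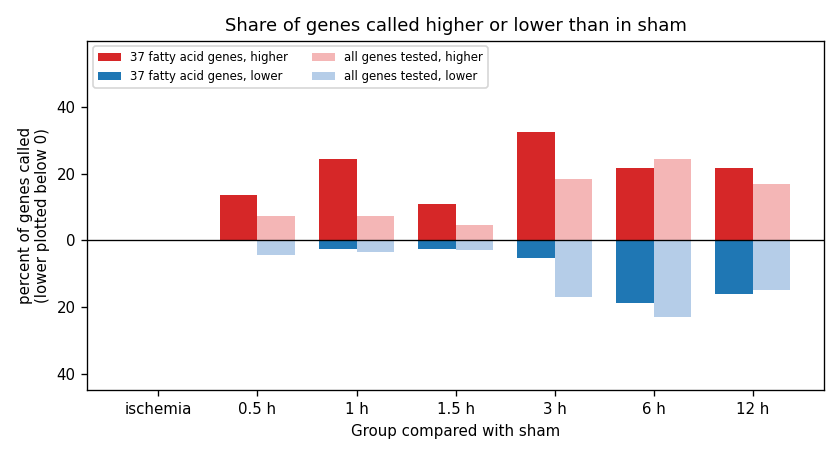
Share of the 37 genes (dark bars) and of all tested genes (pale bars) called higher (above 0) or lower (plotted below 0) than in sham, at an adjusted p under 0.05. At 3 h 32.4% of the group was higher against 18.4% of all genes, and at 6 h both directions lay near the background.

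**Figure D3:**
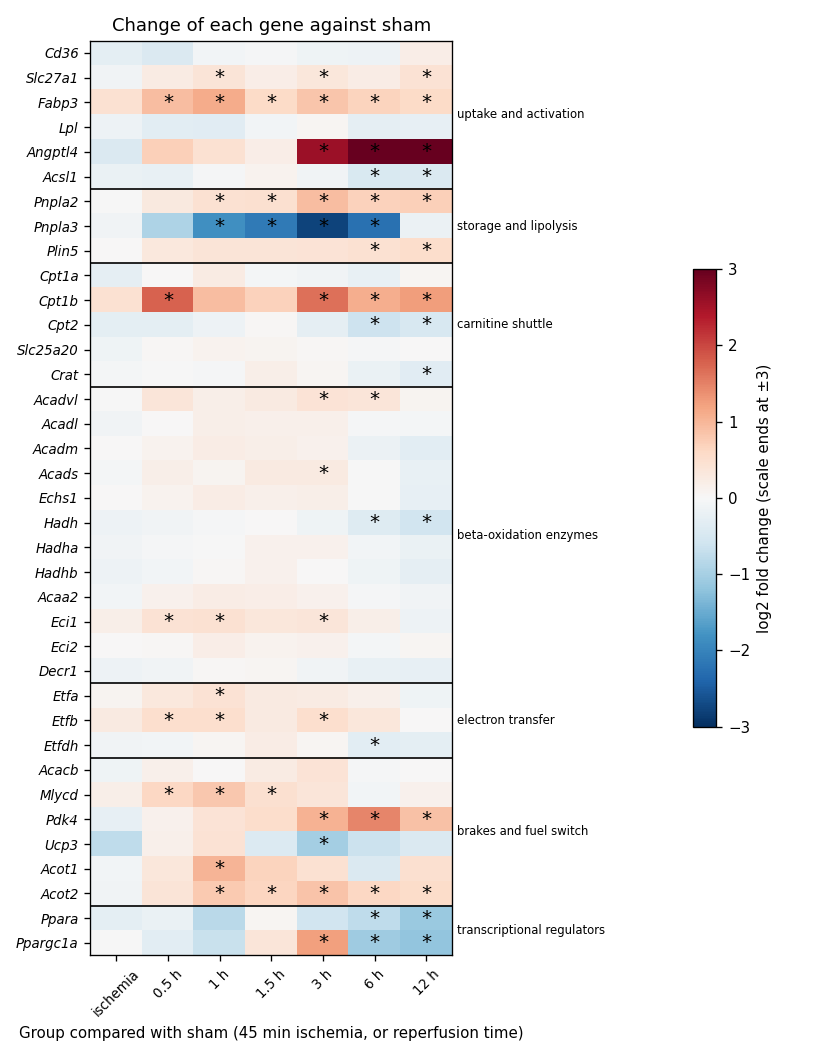
Log2 fold change of each gene against sham (rows, ordered by role) in ischemia and at each reperfusion time (columns); an asterisk marks an adjusted p under 0.05. Angptl4 is the darkest red from 3 h on, Pnpla3 is blue from 1 h to 6 h, and the rows of the beta-oxidation enzymes are pale.

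Among the genes of uptake and activation, Angptl4 rose late and steeply, Fabp3 rose at every reperfusion time, Acsl1 fell at 6 and 12 h, and Cd36 and Lpl were called at no time. Angptl4 encodes a secreted inhibitor of lipoprotein lipase and is a well-known target of PPARs and of fatty acids. Its level was 29.3, 25.5 and 14.2 CPM in the 3 sham libraries and 13.5, 18.7 and 18.7 CPM after ischemia alone. The early times lay near these values, with 48.3, 40.3 and 25.3 CPM at 0.5 h, 39.8, 30.7 and 24.9 CPM at 1 h and 26.2, 16.6 and 36.5 CPM at 1.5 h. At 3 h it was 198, 82.3 and 133 CPM, at 6 h 277, 375 and 181 CPM and at 12 h 337, 293 and 84.5 CPM. All 9 libraries from 3 h on were above every earlier library, and the third 12 h library was the lowest of its group. Relative to sham the log2 fold change was 2.58 ± 0.42 (SE) at 3 h, a 5.97-fold rise (adjusted p = 5.3e-05), 3.59 ± 0.43 at 6 h, 12.01-fold (adjusted p = 4.4e-07), and 3.37 ± 0.43 at 12 h, 10.3-fold (adjusted p = 2.3e-06). These 3 calls held under each of the 16 alternatives tried. The step from 1.5 h to 3 h was itself called, at 2.38 ± 0.41 (adjusted p = 0.000940), while that from 3 h to 6 h was 1.01 ± 0.39 with an adjusted p of 0.0535.

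Neutrophil markers also rose, from an earlier time: of 7 tested 4 were higher at 0.5 h, 5 at 1 h, 6 at 1.5 h and 7 at 3, 6 and 12 h. The shares of all genes higher at these times were, in order, 7.43%, 7.46%, 4.55%, 18.4%, 24.6% and 16.9%. From 1.5 to 3 h, the step at which Angptl4 was called, 0 of the 7 were called, against 5.36% of all genes higher and 3.17% lower. From 3 to 6 h 6 were higher, against 14.7% of all genes. Across groups the summed level of the list of 8 went from 1.80 to 5.20 CPM in sham through 11.2 to 34.1 CPM at 3 h to 69.2 to 160.3 CPM at 6 h. The part of entering cells in the rise of Angptl4 was not tested. In bulk tissue, fewer cells of a type and less RNA per cell cannot be told apart, and this holds for every level given here. Adipocytes also express Angptl4. Of 7 adipocyte markers 0 passed the filter, and their summed level was at most 3.66 CPM in sham and 1.26 CPM in any library from 3 h on. Lep was at 0 reads in all libraries of sham, 6 h and 12 h. The part of adipocytes in the level of Angptl4 was not tested.

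Fabp3, which carries fatty acids through the cytosol of the muscle cell, had 1409, 1395 and 1458 CPM in sham and 1495, 1957 and 2377 CPM after ischemia. It reached 2934, 2524 and 2584 CPM at 0.5 h and 3933, 2633 and 2614 CPM at 1 h, and was then 2466, 1881 and 2014 CPM at 1.5 h. Later values were 2267, 2622 and 2688 CPM at 3 h, 2438, 2195 and 2180.3 CPM at 6 h and 2260.4, 2141 and 1895 CPM at 12 h. Every ischemic and reperfused library was above every sham library, and the first 1 h library, the one that favoured short genes, was the highest. The log2 fold change was 0.92 ± 0.16 at 0.5 h (adjusted p = 0.00111), 1.11 ± 0.16 at 1 h (adjusted p = 9.6e-05), 0.83 ± 0.16 at 3 h (adjusted p = 0.000302) and 0.56 ± 0.16 at 12 h (adjusted p = 0.00814). These calls and that at 6 h held under all 16 alternatives, removal of the length trend included. The 1.5 h call, at 0.58 ± 0.16 (adjusted p = 0.0249), did not, with an adjusted p of 0.140 and 0.0579 with 1.5 h library 1 or 3 left out and 0.0654 to 0.0860 with any 1 of the 3 sham libraries left out. Of the exonic bases of Fabp3, 19.6% lie opposite exons on the other strand, and the strand setting of the counting is not given in the sources used here.

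Acsl1, the long-chain acyl-CoA synthetase that activates fatty acids in heart muscle, had 1161, 1057 and 1093 CPM in sham. At 3 h it had 905, 1208 and 968 CPM, at 6 h 885, 729 and 811 CPM and at 12 h 808, 742 and 920.2 CPM. All libraries of 6 and 12 h were below all sham libraries, while the 3 h libraries overlapped sham. The change from sham was -0.45 ± 0.12 at 6 h (adjusted p = 0.00280) and -0.42 ± 0.12 at 12 h (adjusted p = 0.00722), and from 3 h to 6 h it was -0.35 ± 0.12 (adjusted p = 0.0289). The 12 h call was lost at adjusted p 0.0590 with 12 h library 2 left out and 0.122 with library totals alone. The call from 3 to 6 h was lost at adjusted p 0.264 with 3 h library 2 left out, 0.149 and 0.0735 with 6 h library 2 or 3 left out, 0.0646 with library totals alone, 0.0924 with no filter on low counts and 0.133 with only the groups compared in the fit.

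The transport protein Slc27a1, which takes up and activates long-chain fatty acids, was called higher at 1 h (0.38 ± 0.12, adjusted p = 0.0470), at 3 h (0.34 ± 0.12, adjusted p = 0.0324) and at 12 h (0.42 ± 0.12, adjusted p = 0.00953). Its mean was 149.9 ± 9.13 CPM (SD, n = 3) in sham and 201 ± 37.2 CPM at 12 h, and all libraries of these 3 times were above sham. At 1 h the call was lost under 11 of 16 alternatives, at adjusted p 0.0585 to 0.122 with any 1 of the 3 1 h libraries left out, 0.0726 to 0.155 with any 1 of the 3 sham libraries left out, 0.0963 with the length trend removed, 0.0604 with library totals alone, 0.0547 without the mitochondrial genome, 0.0996 with no filter on low counts and 0.0584 with only the groups compared in the fit. The 3 h call was lost at adjusted p 0.0561 to 0.0714 with any 1 of the 3 3 h libraries left out, 0.0792 and 0.115 with sham library 1 or 2 left out, 0.0815 with library totals alone and 0.0702 with no filter on low counts. The 12 h call was lost at adjusted p 0.0953 with 12 h library 1 left out.

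Cd36 ran from 1194 to 2360.3 CPM over all 24 libraries. Its 0.5 h libraries were at 1475, 1403 and 1429 CPM against 2104, 1802 and 1919 CPM in sham, all below, with a log2 fold change of -0.44 ± 0.14 that missed the threshold (adjusted p = 0.0506). At 12 h it was at 2360.3, 2203 and 2148 CPM, all above sham, with a change of 0.20 ± 0.14 (adjusted p = 0.297). The 0.5 h change of Cd36 was called under 5 of the 16 alternatives, among them DESeq2 (adjusted p = 0.0281). Lpl lay between 3959.8 and 7245 CPM, and its changes against sham reached -0.34 ± 0.14 at 1 h (adjusted p = 0.113), or -0.31 without 1 h library 1.

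The 3 genes of storage and lipolysis moved apart: Pnpla2 rose from 1 h on, Plin5 was called higher at 6 and 12 h, and Pnpla3 fell from 1 h to 6 h and was back near its sham level at 12 h. Pnpla2 encodes adipose triglyceride lipase, which takes the first fatty acid off stored triglyceride. Its level was 309, 302 and 321 CPM in sham and 264, 322 and 345 CPM after ischemia, then 416, 351 and 385 CPM at 0.5 h, 486, 396 and 400.0 CPM at 1 h and 475, 387 and 450.3 CPM at 1.5 h. It peaked at 3 h with 520.1, 669 and 571 CPM, and stood at 497, 509 and 501 CPM at 6 h and 584, 492 and 446 CPM at 12 h. Every reperfused library was above every sham library. The log2 fold change was 0.92 ± 0.13 at 3 h, 1.89-fold (adjusted p = 1.0e-05), 0.69 ± 0.13 at 6 h (adjusted p = 0.000117) and 0.71 ± 0.13 at 12 h (adjusted p = 0.000192), and these 3 calls held under all 16 alternatives. Earlier it was 0.46 ± 0.13 at 1 h (adjusted p = 0.0239) and 0.49 ± 0.13 at 1.5 h (adjusted p = 0.0188). The 1 h call was lost at adjusted p 0.128 with 1 h library 1 left out and 0.0555 to 0.0831 with any 1 of the 3 sham libraries left out. The 1.5 h call was lost at adjusted p 0.0956 and 0.0791 with 1.5 h library 1 or 3 left out and 0.0638 and 0.0774 with sham library 1 or 2 left out. The rise from 1.5 h to 3 h was 0.42 ± 0.13 (adjusted p = 0.0397). It was lost at adjusted p 0.0607 to 0.201 with any 1 of the 3 1.5 h libraries left out, 0.144 and 0.0947 with 3 h library 2 or 3 left out, 0.0539 with no filter on low counts and 0.111 with only the groups compared in the fit.

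Plin5, the perilipin that couples lipid droplets to mitochondria in oxidative tissue, had 119 ± 17.8 CPM (SD, n = 3) in sham, 165 ± 45.6 CPM at 6 h and 171 ± 44.3 CPM at 12 h, with overlapping libraries. Its changes of 0.46 ± 0.19 (adjusted p = 0.0425) and 0.52 ± 0.19 (adjusted p = 0.0362) rest on single libraries. The 6 h call was lost at adjusted p 0.360 with 6 h library 1 left out, 0.135 and 0.135 with sham library 2 or 3 left out, 0.0536 with the length trend removed and 0.0587 with only the groups compared in the fit. The 12 h call was lost at adjusted p 0.244 and 0.0614 with 12 h library 1 or 2 left out, 0.124 and 0.126 with sham library 2 or 3 left out and 0.0537 with the length trend removed.

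Pnpla3, a patatin-like protein of lipid droplets related to Pnpla2, went the other way from Pnpla2. Its level was low, with 5 to 116 reads a library, where 3 reads correspond to 0.175 to 0.224 CPM. It was 6.74, 7.05 and 1.84 CPM in sham, 4.83, 5.23 and 4.66 CPM after ischemia and 2.96, 3.71 and 1.60 CPM at 0.5 h. It then fell to 1.69, 2.03 and 0.684 CPM at 1 h, 0.668, 1.75 and 1.20 CPM at 1.5 h and 0.903, 0.370 and 0.975 CPM at 3 h. At 6 h it was 1.30, 1.46 and 0.561 CPM, and at 12 h 5.66, 5.86 and 2.39 CPM. The third sham library was below the other two, and all libraries from 1.5 h to 6 h were below it. The change from sham was -1.84 ± 0.47 at 1 h (adjusted p = 0.0146), -2.12 ± 0.49 at 1.5 h (adjusted p = 0.00761), -2.77 ± 0.52 at 3 h, 6.84-fold lower (adjusted p = 0.000242), and -2.23 ± 0.49 at 6 h (adjusted p = 0.000600). From 6 h to 12 h it rose by 2.06 ± 0.48 (adjusted p = 0.00606), and at 12 h the difference from sham was -0.18 ± 0.42 (adjusted p = 0.784). At 1 h the call was lost at adjusted p 0.0545 and 0.0593 with 1 h library 1 or 3 left out and 0.0746 and 0.0749 with sham library 1 or 2 left out. The 1.5 h call was lost at adjusted p 0.0547 with 1.5 h library 1 left out, while the calls at 3 h, 6 h and from 6 to 12 h held under all 16 alternatives.

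The sequence upstream of Pnpla3 is shown because this gene had the largest fall of the group and the only full cAMP response element in the promoter windows of these genes. RefSeq windows of 250 bases before to 50 after a start site were at hand for 31 of the 37 genes, as 35 windows, with 32851 windows over all genes (build GRCm38.p6). The palindrome TGACGTCA, to which CREB and ATF family factors can bind, was found in 1 of the 35 windows and in 1.79% of all windows. Its core TGACG, searched on both strands and contained in the palindrome, was found in 9 of the 31 genes (Acadm, Acot2, Etfa, Etfdh, Fabp3, Pnpla3, Ppara, Ppargc1a and Ucp3), which is 25.7% of their windows against 20.8% of all windows. The 250 bases before the Pnpla3 start site, chr15:84167566-84167815 on the plus strand, read 5′ to 3′ with the match in capitals:
Pnpla3: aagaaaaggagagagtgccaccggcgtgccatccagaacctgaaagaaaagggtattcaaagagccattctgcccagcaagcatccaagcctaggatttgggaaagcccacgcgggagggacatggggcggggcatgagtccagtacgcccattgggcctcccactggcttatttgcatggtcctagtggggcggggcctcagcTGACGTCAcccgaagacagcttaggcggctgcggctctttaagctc
The match begins 46 bases before the start site. It is a description of the letters, not of a bound site, and no binding was measured here.

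Of the 5 genes of the carnitine shuttle, Cpt2 fell at 6 and 12 h, Crat was called lower at 12 h, Cpt1b was called higher at 4 times, and Cpt1a and Slc25a20 were called at no time. Cpt2, the carnitine palmitoyltransferase of the inner mitochondrial membrane, had 321, 293 and 322 CPM in sham and 257, 277 and 235 CPM after ischemia. It was at 262, 246 and 257 CPM at 0.5 h, 295, 257 and 287 CPM at 1 h, 332, 326 and 300.2 CPM at 1.5 h and 252, 293 and 227 CPM at 3 h. The lowest values came at 6 h, with 221, 186 and 202 CPM, and at 12 h, with 214, 205 and 247 CPM, all below every sham library. The fall was -0.62 ± 0.11 at 6 h, 1.54-fold (adjusted p = 7.6e-05), and -0.49 ± 0.11 at 12 h (adjusted p = 0.00149), and both calls held under all 16 alternatives. From 3 h to 6 h the change was -0.34 ± 0.11 (adjusted p = 0.0237). That call was lost at adjusted p 0.186 with 3 h library 2 left out, 0.124 and 0.0684 with 6 h library 2 or 3 left out, 0.101 with no filter on low counts and 0.102 with only the groups compared in the fit.

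Crat, the carnitine acetyltransferase that buffers acetyl-CoA, went from 556 ± 8.66 CPM (SD, n = 3) in sham to 442 ± 46.6 CPM at 12 h, a change of -0.33 ± 0.11 (adjusted p = 0.0194). That call was lost at adjusted p 0.0668 and 0.128 with 12 h library 1 or 2 left out, 0.0557 and 0.0534 with sham library 1 or 2 left out, 0.352 with library totals alone and 0.155 with no filter on low counts. Cpt1a, the liver form of the malonyl-CoA-sensitive transferase of the outer membrane, stayed between 44.9 and 91.5 CPM in all libraries, with changes from -0.28 ± 0.16 in ischemia to 0.24 ± 0.16 at 1 h, or 0.42 at 1 h without 1 h library 1 (adjusted p = 0.130). Slc25a20, the carnitine-acylcarnitine carrier, had the smallest spread of the group means among the 37 genes, at 1.16-fold, and lay between 150.3 and 203 CPM.

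Cpt1b, the muscle form of the outer-membrane transferase, shares most of its exons with another gene, so that its count may be incomplete. In the GENCODE vM21 annotation 2744 of its 3372 exonic bases lie in exons of the readthrough gene Gm44502 on the same strand. Gm44502 has no row of its own in the deposited tables, where the neighbouring Chkb has the length of 5805 bases that both genes have when joined, so that 628 bases of Cpt1b are free of shared exons. Its reads, from 14 to 175 a library, may come from this remainder alone, so that its level may not be comparable with those of other genes. The annotation release and the counting rule behind the tables are not known here, and which exons were counted was not tested. It had 3.60, 3.77 and 1.12 CPM in sham, 10.8, 10.3 and 8.46 CPM at 0.5 h, 7.47, 8.13 and 11.4 CPM at 3 h, 6.39, 5.79 and 6.17 CPM at 6 h and 8.35, 6.82 and 5.46 CPM at 12 h. All libraries of these times were above all sham libraries, the third of which was the lowest. The change was 1.77 ± 0.41 at 0.5 h (adjusted p = 0.00797), the largest called rise of the group at that time, 1.64 ± 0.41 at 3 h (adjusted p = 0.00321), 1.09 ± 0.41 at 6 h (adjusted p = 0.0331) and 1.26 ± 0.41 at 12 h (adjusted p = 0.0207). Only the 3 h call held under all alternatives. The 0.5 h call was lost at adjusted p 0.0518 with sham library 3 left out. The 6 h call was lost at adjusted p 0.0561 to 0.0663 with any 1 of the 3 6 h libraries left out and 0.166 with sham library 3 left out. The 12 h call was lost at adjusted p 0.0758 with 12 h library 1 left out and 0.118 with sham library 3 left out. Whether the counted reads follow the whole Cpt1b transcript was not tested.

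The 12 beta-oxidation enzymes stayed near their sham levels at most times, and their median was lowest at 12 h. Their median log2 fold change against sham was -0.07 in ischemia, 0.07 at 0.5 h, 0.18 at 1 h (0.05 without 1 h library 1), 0.15 at 1.5 h, 0.14 at 3 h, -0.05 at 6 h and -0.21 at 12 h. The 3 h value was 0.03 without 3 h library 2, 0.17 without 3 h library 3 and 0.24 without 3 h library 1. At 1.5 h all 12 were above the sham level and at 12 h 2 of 12 were. At 12 h every enzyme except Acadvl and Eci2 had all 3 libraries below all sham libraries. The share of all genes with such libraries was not computed. With library totals alone as the scaling, the enzyme median at 12 h was 0.004, while that of all genes was 0.23. Of single genes, 1 was called higher at 0.5 h, 1 at 1 h, 0 at 1.5 h, 3 at 3 h and 1 at 6 h, and 1 was called lower at 6 h and 1 at 12 h. The 3 of 12 higher at 3 h, or 25%, stand beside 18.4% of all genes, and the 1 of 12 higher at 0.5 or 1 h, or 8.33%, beside 7.43% and 7.46%. The 1 of 12 higher and 1 lower at 6 h stand beside 24.6% and 22.9%, and the 1 lower at 12 h beside 14.9%. The libraries of a time differed widely. At 1 h the median of the 12 enzymes relative to the sham mean was 0.33 in the first library, 0.02 in the second and 0.06 in the third. At 3 h it was -0.06 in the first library, 0.36 in the second and 0.09 in the third. At 12 h it was -0.23, -0.25 and -0.13. Of the ventricular cardiomyocyte markers, 7 of 14 were called higher at 3 h and 2 lower, against 18.4% and 16.9% of all genes. At 12 h 5 were lower and 1 higher, against 14.9% and 16.9%. Their summed level ran from 86659 to 91026 CPM in sham. It was highest in a 3 h library, at 114612 CPM, and lowest in a 12 h library, at 62026 CPM. The part of the cardiomyocyte share of the RNA in the enzyme levels was not tested.

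**Figure D4:**
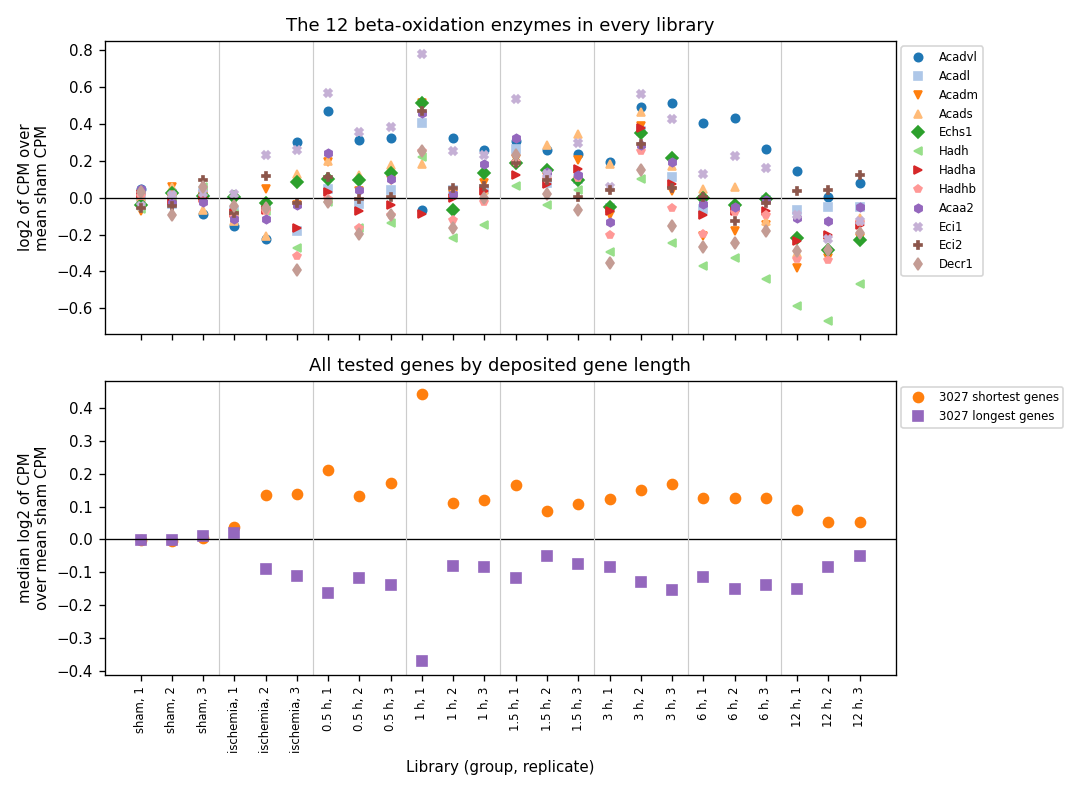
Upper panel, log2 of each beta-oxidation enzyme's CPM over its mean in sham, in every library; lower panel, the median of the same ratio for the 3027 shortest and the 3027 longest tested genes. The enzymes lie within a band around 0, Hadh is lowest at 12 h, and the first 1 h library has the widest gap between short and long genes.

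Hadh, the dehydrogenase of the third step for medium and short chains, was the enzyme with the clearest change. It had 565, 589 and 615 CPM in sham, 616, 574 and 606 CPM at 1.5 h and 480.2, 632 and 497 CPM at 3 h. At 6 h it was at 456, 469.6 and 434 CPM and at 12 h at 392, 371 and 426 CPM, all below sham. The change was -0.38 ± 0.12 at 6 h (adjusted p = 0.0117) and -0.57 ± 0.12 at 12 h (adjusted p = 0.000753), a 1.49-fold fall that held under all 16 alternatives. The 6 h call was lost at adjusted p 0.0548 with duplicate reads removed. Acads, the short-chain acyl-CoA dehydrogenase, had 183, 190.0 and 174 CPM in sham, 207, 252 and 206 CPM at 3 h and 148, 151 and 169 CPM at 12 h, so that the 3 h libraries were all above and the 12 h libraries all below. Its 3 h change of 0.28 ± 0.11 (adjusted p = 0.0461) was lost at adjusted p 0.239 with 3 h library 2 left out, 0.0679 to 0.145 with any 1 of the 3 sham libraries left out, 0.0862 with the length trend removed, 0.0711 with library totals alone, 0.162 with no filter on low counts and 0.0843 with only the groups compared in the fit.

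Acadvl, the very long-chain dehydrogenase of the inner membrane, had 389.7 ± 19.7 CPM (SD, n = 3) in sham, 517 ± 61.4 CPM at 3 h and 503 ± 31.1 CPM at 6 h. Its changes of 0.41 ± 0.13 (adjusted p = 0.0169) and 0.37 ± 0.13 (adjusted p = 0.0220) did not hold throughout. That at 3 h was lost at adjusted p 0.0643 and 0.0794 with 3 h library 2 or 3 left out, 0.0699 with sham library 3 left out and 0.0531 with library totals alone. That at 6 h was lost at adjusted p 0.0562 and 0.0730 with 6 h library 1 or 2 left out and 0.0829 with sham library 3 left out. Exons on the opposite strand cover 42.9% of its exonic bases, and reads from the 2 strands cannot be told apart if the counting ignored strand.

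Eci1, a short gene for the isomerase that handles unsaturated chains, had 177 ± 4.70 CPM (SD, n = 3) in sham, 241 ± 19.9 CPM at 0.5 h, 241 ± 54.7 CPM at 1 h and 228 ± 39.8 CPM at 3 h. Its calls at 0.5 h (0.44 ± 0.14, adjusted p = 0.0442), 1 h (0.45 ± 0.14, adjusted p = 0.0435) and 3 h (0.36 ± 0.14, adjusted p = 0.0479) were each lost under several alternatives. The 0.5 h call was lost at adjusted p 0.0665 to 0.174 with any 1 of the 3 0.5 h libraries left out, 0.0964 to 0.125 with any 1 of the 3 sham libraries left out and 0.206 with the length trend removed. The 1 h call was lost at adjusted p 0.295 with 1 h library 1 left out, 0.0983 to 0.129 with any 1 of the 3 sham libraries left out, 0.466 with the length trend removed and 0.0973 with only the groups compared in the fit. The 3 h call was lost at adjusted p 0.205 and 0.133 with 3 h library 2 or 3 left out, 0.0889 to 0.122 with any 1 of the 3 sham libraries left out, 0.180 with the length trend removed, 0.0556 with multiply mapped reads included and 0.0583 with only the groups compared in the fit.

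The other 8 enzymes were called against sham at no time. They are the long-chain dehydrogenase Acadl and the medium-chain dehydrogenase Acadm, the hydratase Echs1, both subunits of the trifunctional protein, Hadha and Hadhb, the thiolase Acaa2, the isomerase Eci2 and the dienoyl-CoA reductase Decr1. At 12 h Acadm changed by -0.31 ± 0.12 (adjusted p = 0.0630), Hadhb by -0.26 ± 0.12 (adjusted p = 0.0946) and Decr1 by -0.25 ± 0.13 (adjusted p = 0.141). Acadm had 855, 935 and 903 CPM in sham and 690.2, 716 and 772 CPM at 12 h, with no overlap, and its 12 h change was called under 4 of the 16 alternatives, among them DESeq2 (adjusted p = 0.0385). Acadl stayed between 829 and 1241 CPM, Hadha between 1151 and 1761 CPM and Acaa2 between 654 and 985 CPM over all 24 libraries.

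The electron transfer genes hand the electrons of the acyl-CoA dehydrogenases to ubiquinone. Etfdh, the ubiquinone oxidoreductase, had 612, 569 and 586 CPM in sham, 724, 697 and 649 CPM at 1.5 h, 517, 749 and 573 CPM at 3 h, 511, 437 and 478 CPM at 6 h and 471, 448 and 527 CPM at 12 h. The 1.5 h libraries were all above sham and the 6 h libraries all below. The change was -0.31 ± 0.12 at 6 h against sham (adjusted p = 0.0336) and -0.37 ± 0.12 from 3 h to 6 h (adjusted p = 0.0223). The first was lost at adjusted p 0.141 and 0.0697 with 6 h library 2 or 3 left out, 0.0530 to 0.0990 with any 1 of the 3 sham libraries left out, 0.0683 with duplicate reads removed, 0.180 with the length trend removed and 0.120 with no filter on low counts. The second was lost at adjusted p 0.271 with 3 h library 2 left out, 0.112 and 0.0598 with 6 h library 2 or 3 left out, 0.0655 with no filter on low counts and 0.126 with only the groups compared in the fit.

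Etfa and Etfb, the subunits of the flavoprotein, were called higher early. Etfa went from 416 ± 26.8 CPM (SD, n = 3) in sham to 564 ± 122 CPM at 1 h, a change of 0.44 ± 0.13 (adjusted p = 0.0306). That call was lost at adjusted p 0.228 with 1 h library 1 left out, 0.0576 to 0.118 with any 1 of the 3 sham libraries left out, 0.158 with the length trend removed and 0.105 with only the groups compared in the fit. Etfb had 279.9 ± 2.01 CPM in sham, 396 ± 32.8 CPM at 0.5 h, 398 ± 109 CPM at 1 h and 399 ± 63.2 CPM at 3 h. Its changes were 0.50 ± 0.15 (adjusted p = 0.0318), 0.51 ± 0.15 (adjusted p = 0.0303) and 0.51 ± 0.15 (adjusted p = 0.00998). The 3 h call held under all 16 alternatives. The 0.5 h call was lost at adjusted p 0.135 and 0.0703 with 0.5 h library 1 or 3 left out, 0.0830 to 0.0902 with any 1 of the 3 sham libraries left out and 0.0947 with the length trend removed. At 1 h the call was lost at adjusted p 0.257 with 1 h library 1 left out, 0.0789 to 0.0903 with any 1 of the 3 sham libraries left out, 0.259 with the length trend removed and 0.0922 with only the groups compared in the fit. Etfb shares 58.2% of its exonic bases with Gm45233 on the same strand, so that its count may be split or incomplete.

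Among the brakes and the fuel switch, Pdk4 and Acot2 rose and stayed high, Mlycd and Acot1 rose early, Ucp3 was called lower at 3 h, and Acacb was called at no time. Pdk4 phosphorylates and shuts down pyruvate dehydrogenase and so spares glucose while fatty acids are burned. Its level was 1942, 1596 and 1629 CPM in sham and 1256, 1503 and 1610.3 CPM after ischemia, then 2423, 1580.5 and 1604 CPM at 0.5 h, 2486, 2269 and 2114 CPM at 1 h and 2422, 1959.5 and 3092 CPM at 1.5 h. It went on to 3226, 3726 and 3673 CPM at 3 h, 4743, 5819 and 3751 CPM at 6 h and 4131, 3379 and 2052 CPM at 12 h. All libraries from 1 h on were above all sham libraries, and the third 12 h library was the lowest of the 3, 6 and 12 h libraries. The log2 fold change was 1.04 ± 0.21 at 3 h (adjusted p = 0.000568), 1.47 ± 0.21 at 6 h, 2.77-fold (adjusted p = 5.9e-06), and 0.89 ± 0.21 at 12 h (adjusted p = 0.00232). All 3 calls held under each of the 16 alternatives. The neutrophil markers given above for Angptl4 were also higher at these 3 times, and their part in the level of Pdk4 was not tested. The 250 bases before the Pdk4 start site, chr6:5496279-5496528 on the minus strand, are shown for comparison, since Pdk4 was higher at 6 h, when Pnpla3 and Ppargc1a were lower. None of the motifs searched (TGACGTCA, TGACG, the nuclear receptor core AGGTCA, the PPAR direct repeat AGGTCANAGGTCA and the ERR element TCAAGGTCA, both strands) had a match in it, which says only that these letters are not in this window:
Pdk4: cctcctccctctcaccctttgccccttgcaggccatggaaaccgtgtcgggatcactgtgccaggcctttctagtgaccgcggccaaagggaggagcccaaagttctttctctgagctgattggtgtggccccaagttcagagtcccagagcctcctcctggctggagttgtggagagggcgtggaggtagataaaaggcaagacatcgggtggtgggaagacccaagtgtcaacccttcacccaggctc
Over all windows AGGTCA was found in 16.3%, the direct repeat in 0.0396% and the ERR element in 0.423%, and among the 31 genes AGGTCA was found in 8 and the other 2 in 0.

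Mlycd encodes malonyl-CoA decarboxylase, which removes the inhibitor of carnitine transfer. It had 79.2, 78.01 and 76.3 CPM in sham and 74.95, 79.7 and 109 CPM after ischemia. In early reperfusion it was at 141, 106 and 115 CPM at 0.5 h, 141, 133 and 132 CPM at 1 h and 119.6, 103 and 105 CPM at 1.5 h. It then came down to 92.5, 100.2 and 107 CPM at 3 h, 90.3, 67.5 and 63.1 CPM at 6 h and 98.8, 84.1 and 71.02 CPM at 12 h. Libraries from 0.5 h to 3 h were all above sham, and those of 6 and 12 h overlapped it. The change was 0.63 ± 0.15 at 0.5 h (adjusted p = 0.00963), 0.80 ± 0.15 at 1 h, 1.74-fold (adjusted p = 0.00152), 0.48 ± 0.15 at 1.5 h (adjusted p = 0.0475) and, from 3 h to 6 h, -0.44 ± 0.15 (adjusted p = 0.0305). The 1 h call held under all 16 alternatives. The 0.5 h call was lost at adjusted p 0.0745 with 0.5 h library 1 left out. The 1.5 h call was lost at adjusted p 0.0595 to 0.175 with any 1 of the 3 1.5 h libraries left out, 0.105 to 0.134 with any 1 of the 3 sham libraries left out, 0.0674 with duplicate reads removed and 0.126 with library totals alone. The call from 3 to 6 h was lost at adjusted p 0.0849 and 0.103 with 3 h library 2 or 3 left out, 0.126 and 0.153 with 6 h library 2 or 3 left out, 0.123 with library totals alone and 0.0626 with only the groups compared in the fit.

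Acot1 and Acot2 are near-identical neighbours that split acyl-CoA back to free fatty acid, Acot1 in the cytosol and Acot2 in mitochondria. Of the reads over Acot1 89.6% mapped uniquely, and of those over Acot2 91.3%, so that part of their signal was left out of the unique counts used here. Acot1 had 22.3, 15.1 and 16.1 CPM in sham, 39.96, 37.6 and 31.6 CPM at 1 h, 21.1, 30.6 and 21.7 CPM at 3 h, 16.4, 13.96 and 9.22 CPM at 6 h and 30.4, 29.9 and 14.2 CPM at 12 h. The 1 h libraries were all above sham, the other groups overlapped it, and the third 12 h library lay with those of 6 h. The change was 1.02 ± 0.26 at 1 h (adjusted p = 0.0130), -0.89 ± 0.26 from 3 to 6 h (adjusted p = 0.0141) and 0.91 ± 0.26 from 6 to 12 h (adjusted p = 0.0219). The 1 h call was lost at adjusted p 0.0637 with 1 h library 1 left out, 0.0689 and 0.0569 with sham library 2 or 3 left out and 0.0527 with the length trend removed. That from 3 to 6 h was lost at adjusted p 0.0993 with 3 h library 2 left out and 0.0900 with 6 h library 3 left out. That from 6 to 12 h was lost at adjusted p 0.128 and 0.121 with 12 h library 1 or 2 left out, 0.0675 and 0.106 with 6 h library 2 or 3 left out and 0.0707 with only the groups compared in the fit.

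Acot2 had 83.3, 56.7 and 74.4 CPM in sham and 115, 84.98 and 80.8 CPM at 0.5 h. It was at 130.0, 124 and 112 CPM at 1 h, 119, 97.4 and 119.6 CPM at 1.5 h, 114, 132 and 142 CPM at 3 h, 118, 119.9 and 89.5 CPM at 6 h and 119.9, 109.7 and 84.6 CPM at 12 h, all above sham. The change was 0.77 ± 0.16 at 1 h (adjusted p = 0.00333), 0.65 ± 0.16 at 1.5 h (adjusted p = 0.0125), 0.85 ± 0.16 at 3 h (adjusted p = 0.000258), 0.61 ± 0.16 at 6 h (adjusted p = 0.00299) and 0.55 ± 0.16 at 12 h (adjusted p = 0.0100). The calls at 1, 3 and 6 h held under all 16 alternatives. The 1.5 h call was lost at adjusted p 0.0557 and 0.0674 with 1.5 h library 1 or 3 left out and 0.0981 with sham library 2 left out. The 12 h call was lost at adjusted p 0.0574 with 12 h library 1 left out and 0.0816 with sham library 2 left out.

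Ucp3, an uncoupling protein linked to fatty acid handling, had 112, 128 and 123 CPM in sham, 166, 149 and 173 CPM at 1 h, all above, and 97.1, 37.1 and 45.5 CPM at 3 h, all below. Its 3 h change of -1.01 ± 0.38 (adjusted p = 0.0389) was its only call against sham. It was lost at adjusted p 0.157 and 0.150 with 3 h library 2 or 3 left out, 0.0607 to 0.0876 with any 1 of the 3 sham libraries left out, 0.0598 in DESeq2 and 0.0664 with library totals alone. Its libraries spread widely within a time, with 129.9, 65.7 and 36.6 CPM at 6 h. Acacb, the acetyl-CoA carboxylase that makes malonyl-CoA at the mitochondrion, had 394 ± 8.91 CPM (SD, n = 3) in sham and 526 ± 63.4 CPM at 3 h, all above, with a change of 0.42 ± 0.17 (adjusted p = 0.0609) that was called under 4 of the 16 alternatives.

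Both regulators were lower late, and Ppargc1a was higher before that. Ppargc1a, which encodes PGC-1α, had 147, 138 and 136 CPM in sham, 159.6, 133 and 127 CPM after ischemia and 140.4, 106 and 93.4 CPM at 0.5 h. It was at 77.9, 87.7 and 98.1 CPM at 1 h, all below sham, and at 141, 179 and 217 CPM at 1.5 h. At 3 h it reached 211, 439 and 343 CPM, all above sham, and at 6 h it was down at 93.6, 38.5 and 68.1 CPM and at 12 h at 62.3, 55.2 and 68.7 CPM, all below. The change from sham was 1.24 ± 0.24 at 3 h, 2.36-fold higher (adjusted p = 0.000414), -1.07 ± 0.25 at 6 h, 2.10-fold lower (adjusted p = 0.000961), and -1.17 ± 0.25 at 12 h (adjusted p = 0.000752). All 3 calls held under each of the 16 alternatives, as did the drop from 3 to 6 h of -2.31 ± 0.25, 4.96-fold (adjusted p = 8.5e-07). The rise from 1.5 to 3 h, 0.88 ± 0.24 (adjusted p = 0.0242), was lost at adjusted p 0.129 and 0.0832 with 1.5 h library 1 or 2 left out, 0.117 and 0.0814 with 3 h library 2 or 3 left out and 0.0609 with only the groups compared in the fit. At 1 h the change was -0.67 ± 0.24 (adjusted p = 0.0746), or -0.58 without 1 h library 1, and it was called in DESeq2 (adjusted p = 0.0479).

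The 250 bases before the Ppargc1a start site at hand from RefSeq, chr5:51567726-51567975 on the minus strand, are shown because this gene alone was called in both directions. This start site is at the upstream end of the annotated gene, and no other start site within the gene was searched. The 1 match to TGACG on the opposite strand, at 49 bases before the start site, is in capitals:
Ppargc1a: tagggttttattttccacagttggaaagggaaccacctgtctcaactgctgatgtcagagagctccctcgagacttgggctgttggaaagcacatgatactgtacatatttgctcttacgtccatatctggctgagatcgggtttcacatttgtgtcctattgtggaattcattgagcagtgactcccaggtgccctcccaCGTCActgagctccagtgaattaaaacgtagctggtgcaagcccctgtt
This core is common, since 20.8% of all windows hold it.

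Ppara, the receptor that fatty acids activate, had 41.5, 36.7 and 35.02 CPM in sham, 8.37, 27.8 and 27.96 CPM at 1 h, 35.8, 43.8 and 39.1 CPM at 1.5 h, 24.7, 26.5 and 24.6 CPM at 3 h, 32.1, 17.4 and 17.4 CPM at 6 h and 18.7, 11.2 and 22.5 CPM at 12 h. The 1, 3, 6 and 12 h libraries were all below sham, with the first 1 h library lowest of all. The change was -0.76 ± 0.30 at 6 h (adjusted p = 0.0406) and -1.12 ± 0.30 at 12 h, 2.17-fold lower (adjusted p = 0.00646). The 6 h call was lost at adjusted p 0.160 and 0.148 with 6 h library 2 or 3 left out, 0.0561 to 0.109 with any 1 of the 3 sham libraries left out, 0.0703 in DESeq2 and 0.0847 with library totals alone. The 12 h call was lost at adjusted p 0.0554 with 12 h library 2 left out. At 3 h the difference, -0.58 ± 0.30, did not pass (adjusted p = 0.136).

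**Figure D5:**
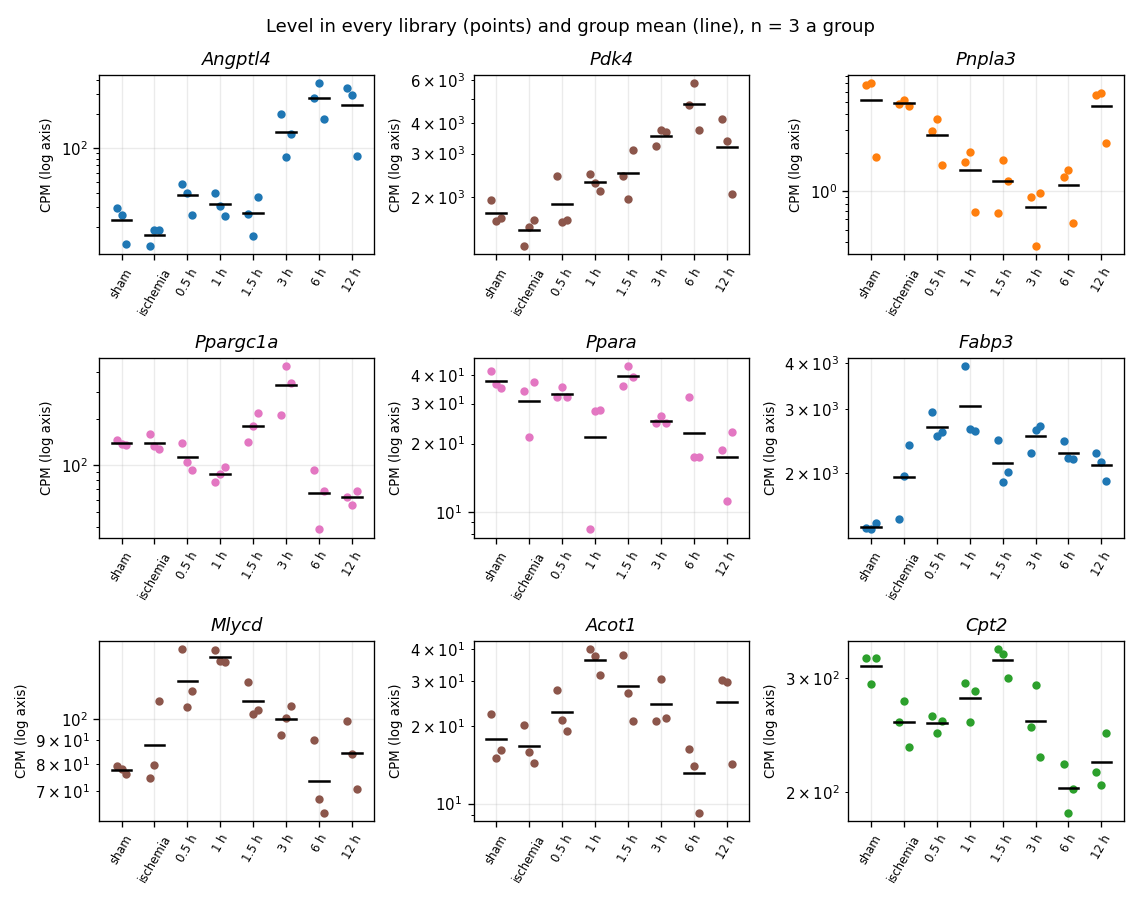
CPM of 9 genes in every library (points, log axis) with the group mean (line). Angptl4 climbs from 3 h, and Pdk4 is above sham from 1 h on. Pnpla3 dips from 1 h to 6 h, and Ppargc1a peaks at 3 h and is below sham at 6 and 12 h. Mlycd and Fabp3 are highest at 0.5 to 1 h.

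Other genes of fatty acid metabolism, 88 in 5 lists of which 86 passed the filter, had more calls lower than higher at 6 and 12 h. At 3 h 19 were higher and 12 lower, at 6 h 17 and 30, and at 12 h 8 and 26. As shares, 34.9% of the 86 were lower at 6 h and 30.2% at 12 h, against 22.9% and 14.9% of all tested genes. The higher calls stand beside 18.4% of all tested genes at 3 h, 24.6% at 6 h and 16.9% at 12 h. The 12 lower at 3 h stand beside 16.9%. Of 18 tested genes of triglyceride synthesis and lipid droplets, 7 were higher and 4 lower at 6 h, or 38.9% and 22.2% against 24.6% and 22.9% of all genes. Of 22 tested genes of other mitochondrial, peroxisomal and ketone oxidation, 0 were higher and 11 lower at that time, or 0% and 50%. Among the droplet genes, Plin2, the perilipin that coats fresh droplets, went from 50.1 ± 5.92 CPM (SD, n = 3) in sham to 170.2 ± 35.6 CPM at 6 h (1.76 ± 0.18, adjusted p = 3.3e-08) and 246 ± 63.7 CPM at 12 h (2.29 ± 0.18, adjusted p = 3.5e-09). Hilpda, an inhibitor of adipose triglyceride lipase, rose at 6 h by 1.71 ± 0.32 (adjusted p = 0.000125), and Lipe, the hormone-sensitive lipase, at 12 h by 1.09 ± 0.17 (adjusted p = 2.7e-05). Lpin2 rose by 1.11 ± 0.19 at 6 h (adjusted p = 5.6e-05), while its relative Lpin1, a phosphatidate phosphatase and coactivator of PPARα, changed by -1.42 ± 0.22 at 6 h (adjusted p = 1.0e-05) and -1.19 ± 0.21 at 12 h (adjusted p = 0.000162).

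In the oxidation list 4 genes fell at least 2-fold. Ehhadh, the bifunctional enzyme of peroxisomes, changed by -2.18 ± 0.31 at 6 h (adjusted p = 4.2e-06), from 19.8 ± 2.16 to 4.33 ± 2.95 CPM. The peroxisomal reductase Decr2 changed by -1.15 ± 0.18 at 6 h (adjusted p = 1.8e-05), the peroxisomal transporter Abcd2 by -1.11 ± 0.21 at 3 h (adjusted p = 0.000284), and Acad10 by -1.03 ± 0.24 at 3 h (adjusted p = 0.00157). Of 15 genes of fuel control, 3 were higher and 6 lower at 6 h, or 20% and 40% against 24.6% and 22.9% of all genes. Pdp2, a phosphatase that reactivates pyruvate dehydrogenase and so opposes Pdk4, changed by -1.32 ± 0.22 at 3 h (adjusted p = 8.8e-05), -2.67 ± 0.24 at 6 h (adjusted p = 7.3e-09) and -1.93 ± 0.23 at 12 h (adjusted p = 8.9e-07), from 24.9 ± 2.72 CPM in sham to 3.89 ± 1.31 CPM at 6 h. The thioesterase Acot11 changed by -1.21 ± 0.22 at 6 h (adjusted p = 0.000117).

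Of 18 other regulators, 3 were higher and 7 lower at 6 h, or 16.7% and 38.9% against 24.6% and 22.9% of all genes. At 12 h 0 were higher and 7 lower, against 16.9% and 14.9%. Rxrg, a partner receptor of PPARα, changed by -1.49 ± 0.18 at 6 h (adjusted p = 3.6e-07) and -1.30 ± 0.17 at 12 h (adjusted p = 4.7e-06). Klf15, a cardiac regulator of lipid use, changed by -1.10 ± 0.25 at 6 h (adjusted p = 0.00100) and -1.02 ± 0.25 at 12 h (adjusted p = 0.00309), and Prkaa2, the catalytic AMPK subunit of muscle, by -1.04 ± 0.15 at 6 h (adjusted p = 7.3e-06). In the uptake list, where 4 of 13 were higher and 2 lower at 6 h (30.8% and 15.4%, against 24.6% and 22.9% of all genes), the lipoprotein receptor Vldlr changed by -1.32 ± 0.14 at 6 h (adjusted p = 8.9e-08) and -1.44 ± 0.14 at 12 h (adjusted p = 6.3e-08), from 466 ± 49.4 CPM in sham to 171 ± 25.1 CPM at 12 h. In each of these oxidation, fuel control, regulator and uptake genes, all libraries of the times named lay below sham. Fibroblast markers fell over the same interval, with 6 of 8 lower at 6 h and 2 higher, against 22.9% and 24.6% of all genes. Their summed level went from 1352 to 1423 CPM in sham to 530.2 to 839 CPM at 6 h. The part of any change in cell makeup in these values was not tested.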

How the data were processed

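Bulk RNA was sequenced from heart tissue of wild-type C57BL/6 mice in 8 groups of 3 libraries, prepared with a TruSeq kit per the labels' protocols. The deposited table of each library holds read counts per Ensembl gene, which the authors made with uniquely mapped reads, with and without duplicates, and with multiply mapped reads included, per the file headers. The same tables hold the authors' RPKM, used here only to compare levels between genes in sham. The build is mm10 per the submitters' processing notes, while no aligner, strand setting or annotation release is given in the sources used here. Coordinates and exon overlaps come from GENCODE vM21 (GRCm38) and promoter windows from RefSeq (GRCm38.p6). Symbols were found for 98.0% of the 46078 identifiers.

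Unique counts with duplicates were fitted in 1 model over all 24 libraries with edgeR 4.0.16 (R 4.3.3), with TMM scaling and filterByExpr (minimum count 10, minimum total 15), which kept 15128 genes and at least 99.92% of the counts of each library. The quasi-likelihood F-test compared each group with sham and 3 pairs of neighbouring times, with Benjamini-Hochberg adjustment over all tested genes and a threshold of 0.05. Levels are given as CPM after TMM scaling, and standard errors were derived from the F statistic. The scripts were tested on simulated counts. The libraries had 13407465 to 17181458 counts, 39.2% to 54.5% of them duplicates, and 19.0% to 33.2% from the mitochondrial genome. No 2 libraries held identical values. Counting error covers reads, not molecules, since no molecular identifiers were used.

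The 16 alternatives for each comparison were DESeq2 (1.42.0), its size factors in edgeR, library totals alone, no filter, duplicates removed, multiply mapped reads included, the mitochondrial genome left out, a replicate block, only the groups compared, each of the 6 libraries left out in turn, and, added after seeing the data, the trend of log2 CPM on gene length removed. Every gene of the group is named. Values per library are given for the 14 with the smallest p over the 8 groups and for those with the largest called rise or fall at a time, and from the lists of other genes those called at 3, 6 or 12 h with at least a 2-fold change, at most 4 in each direction. The genes and lists were chosen with earlier results of these data known.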

Additional observations from a re-analysis of the deposited data

Results flagged for a closer look

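For 9 genes the level changed between neighbouring late times by a test of that change itself (log2 fold change, edgeR's quasi-likelihood test, adjusted p under 0.05). From 1.5 to 3 h Angptl4 rose by 2.38, Ppargc1a by 0.88 and Pnpla2 by 0.42. From 3 to 6 h the change was -2.31 for Ppargc1a, -0.89 for Acot1, -0.44 for Mlycd, -0.37 for Etfdh, -0.35 for Acsl1 and -0.34 for Cpt2. From 6 to 12 h Pnpla3 rose by 2.06 and Acot1 by 0.91.

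In 12 genes besides Ppargc1a all 3 libraries of one time lay above all sham libraries and all 3 of another time lay below, and the difference between those 2 times was not tested. The share of all tested genes with this pattern was not computed. The count therefore does not show a trait particular to these genes. The times shown are those of the largest departure on each side, as log2 fold change against sham. Cd36 had -0.44 at 0.5 h and 0.20 at 12 h. Crat had 0.18 at 1.5 h and -0.33 at 12 h. Among the beta-oxidation enzymes, Acadl had -0.10 in ischemia and 0.17 at 1 h, Acadm 0.18 at 1.5 h and -0.31 at 12 h, and Acads 0.28 at 3 h and -0.23 at 12 h. Echs1 had 0.15 at 1.5 h and -0.24 at 12 h, Hadha 0.12 and -0.20 at the same times, Hadhb 0.13 and -0.26, and Acaa2 0.20 and -0.10. Eci1 had 0.45 at 1 h and -0.15 at 12 h. Etfdh had 0.23 at 1.5 h and -0.31 at 6 h, and Ucp3 0.42 at 1 h and -1.01 at 3 h. Most of these single values did not pass the test against sham, apart from those of Crat at 12 h, Acads at 3 h, Eci1 at 1 h, Etfdh at 6 h and Ucp3 at 3 h.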

How the results depend on the processing

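Of 74 calls of a gene in a comparison with sham or between times, 32 held under all 16 alternatives and 42 were lost under at least 1, and no called value changed sign. Alternatives also made 136 calls in 69 pairs of a gene and a comparison that were not called before. With no filter on low counts ischemia gave 1 call, 0.5 h gave 8 and the step from 1.5 to 3 h gave 6. With library totals alone 0.5 h gave 8 and the step from 6 to 12 h gave 5, and this scaling moved the median of all genes by 0.12 at 0.5 h, 0.23 at 12 h and 0.15 from 6 to 12 h. DESeq2 gave 8 at 0.5 h and 10 from 3 to 6 h. With only the groups compared in the fit there were 13 at 0.5 h, 13 at 1.5 h, 3 from 3 to 6 h and 1 from 6 to 12 h. Removal of the length trend gave 5 at 1 h and 10 from 3 to 6 h. The cause was not tested. How many of all genes were called under each alternative is not given here. Counts under alternatives, here and above, therefore do not show a shift particular to these genes. Without 1 library the count ran from 2 to 4 at 0.5 h, 3 to 9 at 1 h, 0 to 4 at 1.5 h, 10 to 14 at 3 h, 10 to 13 at 6 h, 9 to 16 at 12 h, 1 to 4 from 1.5 to 3 h, 1 to 13 from 3 to 6 h, and 1 to 2 from 6 to 12 h. A replicate block gave 4 calls at 0.5 h, 9 at 1 h, 6 at 1.5 h, 12 at 3 h, 15 at 6 h and 14 at 12 h, and it ended the calls of Eci1 at 0.5, 1 and 3 h, of Acads at 3 h and of Pnpla2 from 1.5 to 3 h. The replicate numbers were not shown to pair libraries: over 84 pairs with the same number the correlation of deviations ran from -0.18 to 0.20, 6 were over 0.1, and 5 of 24 libraries correlated best with their own number. Depth limits Pnpla3 and Cpt1b, with 5 and 14 reads in their lowest libraries.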

Other observations

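The 37 genes took 2.19% ± 0.108 (SD, n = 3) of all unique counts in sham, 2.18% ± 0.0917 in ischemia and 2.58% ± 0.157 at 3 h. With the 37 genes of the mitochondrial genome left out of the total, the share was 3.17% ± 0.0583 in sham, 2.96% ± 0.131 in ischemia and 3.33% ± 0.288 at 3 h.

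Markers of other cell types were also called. Of 10 endothelial markers, 6 were higher and 2 lower at 3 h, against 18.4% and 16.9% of all genes. Their summed level went from 1227 to 1338 CPM in sham to 1468 to 1648 CPM at 3 h. Of 5 tested erythroid markers, 3 were higher at 0.5 h, against 7.43% of all genes. At 3, 6 and 12 h 0 were higher, against 18.4%, 24.6% and 16.9%. Of 9 macrophage and monocyte markers, 6 were higher and 2 lower at 6 h, against 24.6% and 22.9% of all genes. Their summed level, 394 to 449 CPM, lay near that of sham, 388 to 409 CPM. Of 4 tested skeletal muscle markers, 1 was higher at 3 h, against 18.4% of all genes. At 6 and 12 h 0 were higher, against 24.6% and 16.9%.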
